A study of Homo sapiens with 6 samples.

Results

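The 10 genes described here encode the alpha- and beta-tubulins that build cytoplasmic microtubules in most human cells. The alpha isotypes are TUBA1A, TUBA1B, TUBA1C and TUBA4A, and the beta isotypes are TUBB, TUBB2A, TUBB2B, TUBB3, TUBB4B and TUBB6. They were taken by gene symbol from a table of 58302 genes, and all 10 passed the filter on low counts that left 15572 genes for testing. The cells were MDA-MB-231-DR, a doxorubicin-resistant derivative of MDA-MB-231 cells (a human triple-negative breast cancer line), which was kept in medium with a low concentration of doxorubicin. In the control group 3 libraries came from MDA-MB-231-DR cells, and in the CYT group 3 libraries came from the same resistant cells treated with cyperotundone (CYT), a compound of Cyperus rotundus. The dose and duration of CYT for these cells are not given in the sources used here, and the resistant line was the sole cell model sequenced. The comparison addresses how CYT changed the transcriptome of resistant cells.

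Alpha- and beta-tubulin form a dimer, and dimers polymerize head to tail into the microtubules of the interphase network and the mitotic spindle. Taxanes and vinca alkaloids bind tubulin, and a high level of the beta isotype TUBB3 is known for its association with taxane resistance in several tumors. The isotypes of one class share most of their sequence and differ mainly in an acidic C-terminal tail on the outside of the microtubule, where enzymes add or remove glutamates and a terminal tyrosine.

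The coding sequences show how close the members are to each other. Between alpha isotypes 84.4 to 97.2% of aligned coding bases were identical, between beta isotypes 80.9 to 98.2%, and between an alpha and a beta isotype 52.9 to 55.9%. The pair TUBB2A and TUBB2B was identical at 98.2% of coding bases, and TUBA1A and TUBA1B at 97.2%. The ends of the coding sequences of TUBB and TUBB3, the beta isotypes that passed the test in opposite directions, are printed here because the tails are the sites of most of the modifying enzymes described later. Each line gives the last 60 coding bases before the stop codon (20 codons) of one GENCODE 29 transcript per gene, in exon 4 of 4, 5′ to 3′ on the gene's own strand, with in-frame glutamate codons in capitals.
TUBB: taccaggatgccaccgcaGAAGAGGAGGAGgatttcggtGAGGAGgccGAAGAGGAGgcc
TUBB3: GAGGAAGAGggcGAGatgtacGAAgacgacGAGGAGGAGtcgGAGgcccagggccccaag

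In GRCh38 these stretches lie at chr6:30724335-30724394 (TUBB) and chr16:89935742-89935801 (TUBB3), both on the plus strand. Each held 9 glutamate codons, and in TUBB3 the last of them is followed by a longer stretch without glutamate than in TUBB. Over the 6 beta isotypes the number ran from 7 in TUBB6 to 10 in TUBB4B.

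The other end of the coding sequence is shown because cells adjust tubulin mRNA to the amount of free tubulin through it. When free dimers are in excess, the adaptor TTC5 recognizes the first residues of a nascent tubulin chain and the mRNA on that ribosome is degraded. All 10 members began with methionine, arginine and glutamate followed by cysteine in the alpha isotypes or isoleucine in the beta isotypes. The first 15 coding bases of the most counted member of each class follow, with the 4 codons of this start in capitals.
TUBA1B: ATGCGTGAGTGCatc
TUBB: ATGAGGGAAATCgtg

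The libraries held 14050849 to 17770102 counts in the control group and 13056270 to 14106017 after CYT, and the biological coefficient of variation over all tested genes was 37.5%. Of the CYT libraries, replicate 2 correlated least with the others. The study's methods speak in general of independent experiments, but nothing says of these libraries that they came from separate cultures, so p-values may measure only technical spread between them. The 5 markers of the line reported here (VIM, CD44, EGFR, CAV1 and AXL) were all detected, with a summed level of 3646 to 4040 CPM in control and 1656 to 1804 CPM in CYT libraries, and VIM, EGFR and AXL fell after CYT. Of 10 markers of luminal, blood, endothelial and stromal cells, PGR and CD3E had at most 3 counts in every library and the summed level was 23.5 to 32.1 CPM in control and 16.9 to 18.3 CPM in CYT libraries, led by COL1A1 in control (192 to 316 counts, against 35 to 55 after CYT). Other genes of that list went the other way: ERBB3 had 95 to 110 counts in control and 116 to 135 in CYT libraries without passing the test, and CDH1 and PTPRC had no count in control and 2 to 16 and 2 to 7 counts in CYT libraries. The part of these marker levels in the tubulin results was not tested. In bulk RNA, fewer cells of one kind and less RNA per cell cannot be told apart.

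After CYT treatment 4 of the 10 isotypes passed the test in edgeR (quasi-likelihood, Benjamini-Hochberg adjusted p under 0.05 over all tested genes). TUBB and TUBA1C, both among the highest counted isotypes, fell 3.005- and 2.81-fold in mean CPM, and TUBA4A and TUBB3, both low in control, rose 2.26- and 2.53-fold. Of all tested genes 28.6% were called, 15.7% as higher and 12.9% as lower. All 4 called isotypes also exceeded an absolute log2 fold change of 1, which 27.4% of tested genes did together with the adjusted p. After counts were corrected for GC content and gene length, 7 isotypes were called, beside 45.0% of all tested genes, and with the replicate number added as a block also 7, beside 44.4%. The median log2 fold change of the 10 isotypes was -0.40, beside 0.01 over all tested genes. In CPM 6 of the 10 isotypes had groups that did not overlap, 4 with every CYT library below every control library and 2 above, and 46.1% of all tested genes had such groups, 22.7% below and 23.4% above.

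**Figure D1:**
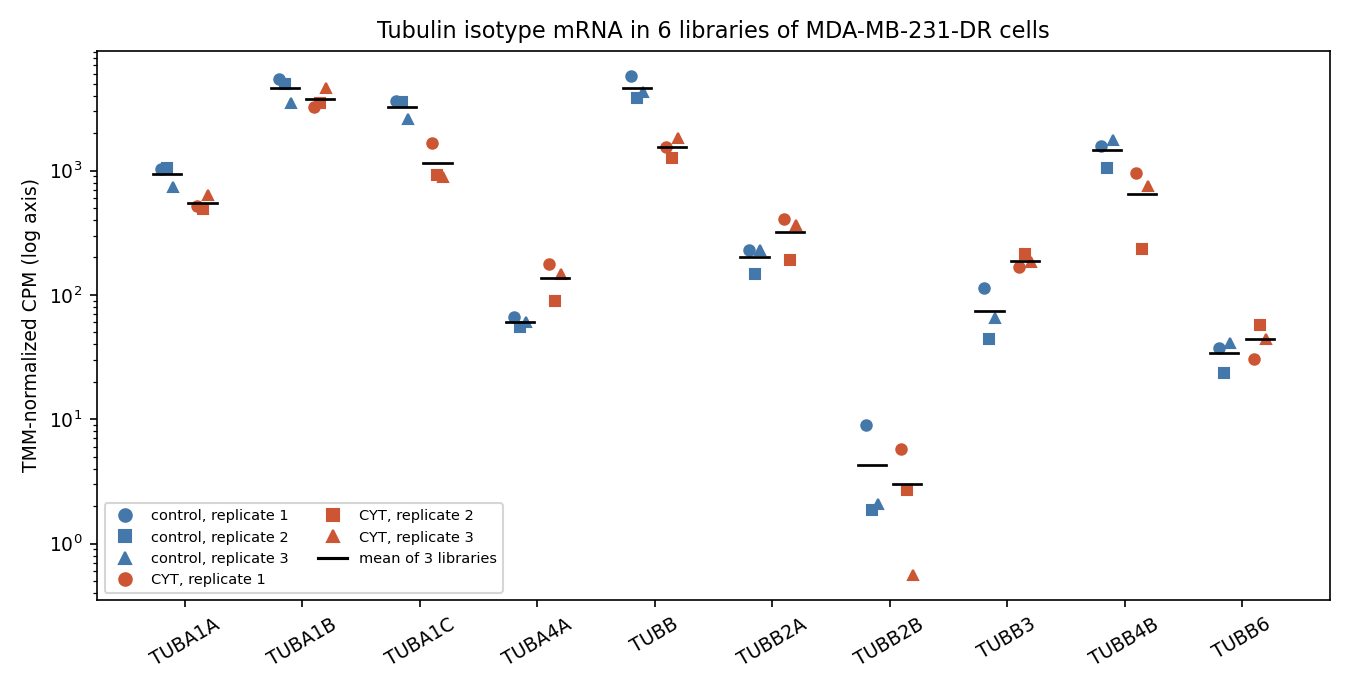
TMM-normalized CPM (log axis) of each of the 10 isotypes, with 1 point per library (control blue, CYT red, the shape giving the replicate number) and a line at the mean of 3 libraries. The CYT libraries of TUBB and TUBA1C sit below all control libraries, those of TUBA4A and TUBB3 above, and TUBB2B is the lowest isotype in both groups.

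Among the beta isotypes, TUBB (ENSG00000196230), the main beta-tubulin of most proliferating cells, had 5785, 3842 and 4250 CPM in the 3 control libraries and 1541, 1254 and 1823 CPM in the 3 CYT libraries. The lowest control library was above the highest CYT library by more than the range of the CYT group. The mean fell from 4626 ± 1024 to 1539 ± 285 CPM (SD, n = 3 each), a 3.005-fold lower level (log2 fold change -1.59, SE 0.29, adjusted p = 0.00378, edgeR). TUBB was called in all 17 alternative fits, with log2 fold changes from -1.71 to -1.41. The processed pseudogene TUBBP1, a near copy of TUBB, held 2370, 18 and 1043 counts in control and 7, 10 and 726 in CYT libraries, at most 3.16% of the TUBB count. With both rows summed, which was tried after the data were seen, the log2 fold change was -1.59 (adjusted p = 0.0039, edgeR).

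TUBB4B (ENSG00000188229), a widely expressed isotype also built into cilia, had 1568, 1043 and 1774 CPM in control and 950, 235 and 744 CPM in CYT libraries. The groups did not overlap, and CYT replicate 2 lay far below the other 2 CYT libraries. The log2 fold change was -1.18 (SE 0.47) and did not pass the test (adjusted p = 0.0867, edgeR). It passed when the replicate number was kept as a block (-1.37, adjusted p = 0.00962), and no fit that left out 1 library called it (adjusted p = 0.0601 to 0.206). Without CYT replicate 2 the log2 fold change was -0.79.

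TUBB3 (ENSG00000258947), the neuronal class III beta-tubulin that many carcinomas also express, had 113, 44.0 and 65.5 CPM in control and 168, 212 and 184 CPM in CYT libraries. Control replicate 1 was the highest control library and stayed below the lowest CYT library. The mean rose from 74.3 ± 35.6 to 188 ± 22.3 CPM (SD, n = 3 each), 2.53-fold (log2 fold change 1.34, SE 0.37, adjusted p = 0.0247, edgeR). The call was lost when control replicate 2, control replicate 3, CYT replicate 1 or CYT replicate 3 was left out, with adjusted p of 0.0682, 0.104, 0.0517 and 0.0529, and it held without control replicate 1 (0.0163) and without CYT replicate 2 (0.0236). The log2 fold change stayed between 1.06 and 1.76 in every alternative fit.

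The row of TUBB3 shares its locus with a second annotated gene. AC092143.1, a protein-coding gene on the same strand, covers 35.8% of the exonic bases of TUBB3, and 89.0% of the 100-base windows of the TUBB3 transcript also occur in it. It held 770, 616 and 302 counts in control and 747, 1 and 869 counts in CYT libraries, so that CYT replicate 2 had a single count where the other 5 libraries had 302 to 869. How shared reads were divided between the 2 rows is not given in the sources used here. The summed counts were 2600, 1442 and 1213 in control and 3124, 2977 and 3186 in CYT libraries, which did not overlap (log2 fold change 1.08, adjusted p = 0.0411, edgeR, tried after the data were seen).

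TUBB2A (ENSG00000137267), a beta isotype of brain and many dividing cells, had 230, 148 and 231 CPM in control and 407, 191 and 365 CPM in CYT libraries. The groups overlapped through CYT replicate 2, and the log2 fold change of 0.66 (SE 0.35) did not pass the test (adjusted p = 0.189, edgeR). Without CYT replicate 2 it was 0.92 with an adjusted p of 0.0256. Its near copy TUBB2B (ENSG00000137285), known from the developing cortex, was the lowest of the 10, at 8.93, 1.86 and 2.08 CPM in control and 5.71, 2.70 and 0.556 CPM in CYT libraries. Its change of -0.51 (SE 0.81, adjusted p = 0.669, edgeR) was smaller than its standard error. The gene PSMG4 overlaps 7.93% of the exonic bases of TUBB2B on the opposite strand. It held 142 to 299 counts, more than TUBB2B in every library. Since 54.4% of the 100-base windows of the TUBB2A transcript also occur in transcripts of TUBB2B, reads of the pair may be divided between the rows in a way that is not stated.

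TUBB6 (ENSG00000176014), a divergent beta isotype of many tissues, had 37.3, 23.7 and 41.3 CPM in control and 30.6, 57.4 and 44.2 CPM in CYT libraries. The groups overlapped and the log2 fold change was 0.37 (SE 0.35, adjusted p = 0.457, edgeR), and it was 0.13 without CYT replicate 2 and 0.14 without control replicate 2. None of its 100-base windows occurred in another gene's transcript, but AFG3L2 overlaps 20.3% of its exonic bases on the opposite strand and held 813 to 2243 counts, more than TUBB6 in every library.

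Among the alpha isotypes, TUBA1C (ENSG00000167553), one of the ubiquitous TUBA1 genes, had 3608, 3524 and 2606 CPM in control and 1661, 920 and 885 CPM in CYT libraries. The groups were far apart, and the highest CYT library was replicate 1. The mean fell from 3246 ± 556 to 1155 ± 438 CPM (SD, n = 3 each), 2.81-fold (log2 fold change -1.49, SE 0.33, adjusted p = 0.00894, edgeR), and the gene was called in all 16 alternative fits.

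TUBA1B (ENSG00000123416), the most counted alpha isotype, stood apart from TUBA1C in its values. It had 5424, 4990 and 3498 CPM in control and 3246, 3470 and 4629 CPM in CYT libraries, which overlapped. Its log2 fold change was -0.29 (SE 0.28, adjusted p = 0.469, edgeR), and no alternative fit called it. Over those fits it ran from -0.49 without control replicate 3 to -0.14 with upper-quartile normalization. TUBA1A (ENSG00000167552), the neighbor of both on chromosome 12 and the main alpha isotype of developing neurons, had 1036, 1057 and 733 CPM in control and 521, 492 and 631 CPM in CYT libraries. These groups did not overlap, but the change of -0.78 (SE 0.28) did not pass the test (adjusted p = 0.0607, edgeR), while DESeq2 gave -0.75 with an adjusted p of 0.0491. Exons of TUBA1A and TUBA1C overlap over 490 bp on opposite strands, which is 14.3% of the exonic bases of TUBA1A. The antisense gene AC011603.2, which overlaps 36.6% of the exonic bases of TUBA1B, held at most 2.71% of the TUBA1B count. Whether counting used the strand is not given in the sources used here.

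TUBA4A (ENSG00000127824), an alpha isotype known from muscle, heart and brain, had 66.5, 55.6 and 60.3 CPM in control and 175, 88.8 and 148 CPM in CYT libraries. All CYT libraries were above all control libraries, with CYT replicate 2 the nearest to them. The mean rose from 60.8 ± 5.49 to 137 ± 44.3 CPM (SD, n = 3 each), 2.26-fold (log2 fold change 1.18, SE 0.33, adjusted p = 0.0239, edgeR). Of the 6 fits that each left out 1 library, only the one without CYT replicate 2 kept the call (adjusted p = 0.00242). The adjusted p was 0.0672 without control replicate 1, 0.0786 without control replicate 2 and 0.0939 without control replicate 3, and it was 0.1001 without CYT replicate 1 and 0.0683 without CYT replicate 3. The gene STK16 overlaps 15.4% of the exonic bases of TUBA4A on the opposite strand. Its counts, 1105, 930 and 736 in control and 385, 367 and 453 in CYT libraries, were lower in every CYT library than in any control library, the other direction from TUBA4A.

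**Figure D2:**
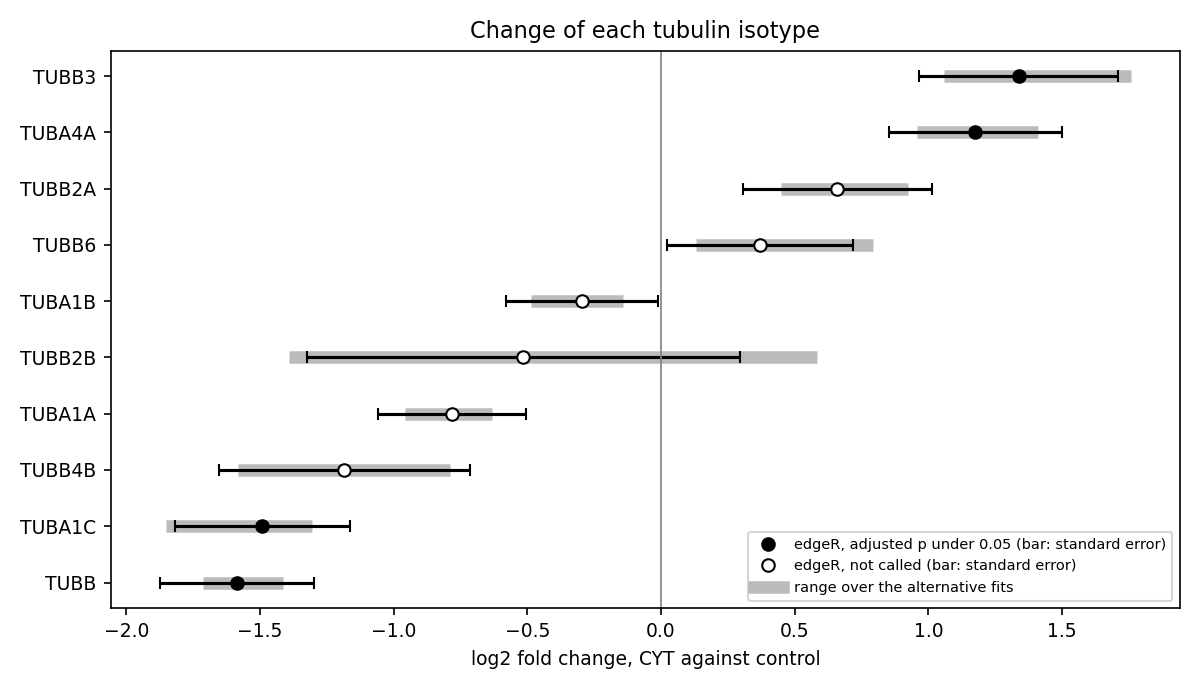
log2 fold change of CYT against control for each isotype (horizontal axis), with points at the edgeR estimate, bars of 1 standard error and grey bands spanning the alternative fits. Filled points passed the test: TUBB and TUBA1C on the left, TUBA4A and TUBB3 on the right. The band of TUBB2B alone spans 0.

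The genes were compared with each other per length. On the deposited FPKM scale, TUBB was the highest isotype in control at 1309, 989 and 1024 FPKM, above every library of TUBA1B (619, 648 and 425 FPKM). In CYT libraries TUBB had 377, 329 and 416 FPKM and TUBA1B 401, 459 and 533 FPKM, and these ranges overlapped. Dividing each count by its FPKM gave a gene length that was 1.299 times (TUBB2A) to 6.04 times (TUBB3) the length of the principal mRNA, so the order of isotypes in FPKM depends on lengths that exceed the mRNA unequally.

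With counts per kilobase of that mRNA, a scale added after the data were seen, the levels in control were 2850 ± 621 CPM per kb for TUBA1B and 1732 ± 384 for TUBB (SD, n = 3 each), and their ranges overlapped. TUBA1C (1082 ± 185) and TUBB4B (893 ± 230) came next with overlapping ranges, followed by TUBA1A (492 ± 94.7) and TUBB2A (127 ± 29.7), each separate from its neighbors. TUBB3 (42.0 ± 20.1) and TUBA4A (28.1 ± 2.54) overlapped, and TUBB6 (16.5 ± 4.46) and TUBB2B (2.12 ± 1.99) were lowest, again separate. In CYT libraries TUBA1B stood alone at the top with 2324 ± 456 CPM per kb. TUBB (577 ± 107), TUBB4B (393 ± 225), TUBA1C (385 ± 146) and TUBA1A (286 ± 38.1) followed, with each overlapping the next. TUBB2A (201 ± 71.7), TUBB3 (106 ± 12.6), TUBA4A (63.6 ± 20.5), TUBB6 (21.3 ± 6.48) and TUBB2B (1.48 ± 1.28) came in this order without overlap between neighbors, though TUBB2A and TUBB3 came within 0.1 CPM per kb of each other.

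Summed over isotypes, tubulin mRNA was lower after CYT. The 10 genes took 1.66, 1.56 and 1.31% of all gene counts in control and 0.875, 0.745 and 0.886% in CYT libraries. The summed beta level was 1836, 1381 and 1638 FPKM in control and 863, 526 and 797 FPKM in CYT libraries, a difference of -1.17 between the group means of the log2 values. The summed alpha level was 1082, 1167 and 781 FPKM in control and 659, 637 and 709 FPKM in CYT libraries, a difference of -0.58 on the same scale. Neither sum overlapped between groups, and each gave p = 0.1 in a two-sided exact permutation test, the smallest value that 3 against 3 libraries allow. On the mRNA-length scale the summed alpha level overlapped (log2 difference -0.53, exact permutation p = 0.2), and the beta level did not (-1.14, p = 0.1). The ratio of alpha to beta was 0.637 ± 0.188 in control and 0.954 ± 0.230 in CYT libraries on the FPKM scale (SD, n = 3 each), with overlapping groups (exact permutation p = 0.2). The ratio was higher in the CYT library of each of the 3 same-numbered pairs, also on the mRNA-length and CPM scales, and an exact paired permutation test, added after the data were seen, gave p = 0.25, the smallest value that 3 pairs allow.

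The composition of each class also differed, as a percent of the summed FPKM of that class in the same library, a quantity that scaling between libraries does not change. TUBB made up 71.3, 71.6 and 62.5% of beta-tubulin in control and 43.7, 62.4 and 52.2% in CYT libraries, so that control replicate 3 and CYT replicate 2 nearly met. The change of -15.7 percentage points (pooled SD 7.55) was -6.26 (pooled SD 7.98) when TUBB2A and TUBB2B were left out of the class, which is within that spread. TUBB2A made up 5.62, 5.48 and 6.74% in control and 22.9, 18.9 and 20.7% in CYT libraries, a wide gap for a gene whose own level did not pass the test. TUBB3 made up 0.537, 0.315 and 0.370% in control and 1.83, 4.05 and 2.03% in CYT libraries. The share of TUBB6 was 0.190 ± 0.0345% in control and 0.629 ± 0.398% in CYT libraries, without overlap. TUBB4B, which had 24.9 ± 4.47% in control and 23.0 ± 8.91% in CYT libraries (SD, n = 3 each), overlapped in its share (exact permutation p = 0.9), as did TUBB2B.

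In the alpha class TUBA1B made up 57.2, 55.5 and 54.4% in control and 60.8, 72.0 and 75.2% in CYT libraries. TUBA1C made up 31.1, 32.0 and 33.1% in control and 25.4, 15.6 and 11.7% in CYT libraries, the reverse order. TUBA1A went from 11.3 ± 0.418 to 10.03 ± 0.262% and TUBA4A from 0.916 ± 0.202 to 3.06 ± 0.887% (SD, n = 3 each), both without overlap. Of their 100-base windows, 71.1% (TUBA1B), 29.6% (TUBA1C), 26.6% (TUBA1A) and 27.4% (TUBA4A) also occur, on either strand, in other genes' transcripts. For TUBA1B, 65.4% occur in the antisense gene AC011603.2. How reads shared between genes were divided is not given in the sources used here. In all, 8 of the 10 shares did not overlap between groups, 3 lower and 5 higher after CYT, and each of these had the smallest exact permutation p of 0.1. Shares within a class sum to 100%, so they are not independent of each other. No such shares were computed for other genes, and in CPM 46.1% of all tested genes had groups that did not overlap. With mRNA lengths in place of the FPKM lengths, the share of TUBB3 was 1.44 ± 0.415% in control and 8.92 ± 4.05% in CYT libraries, that of TUBB2A 4.52 ± 0.452 and 15.2 ± 1.57%, and that of TUBB 61.7 ± 5.55 and 45.6 ± 7.71%.

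**Figure D3:**
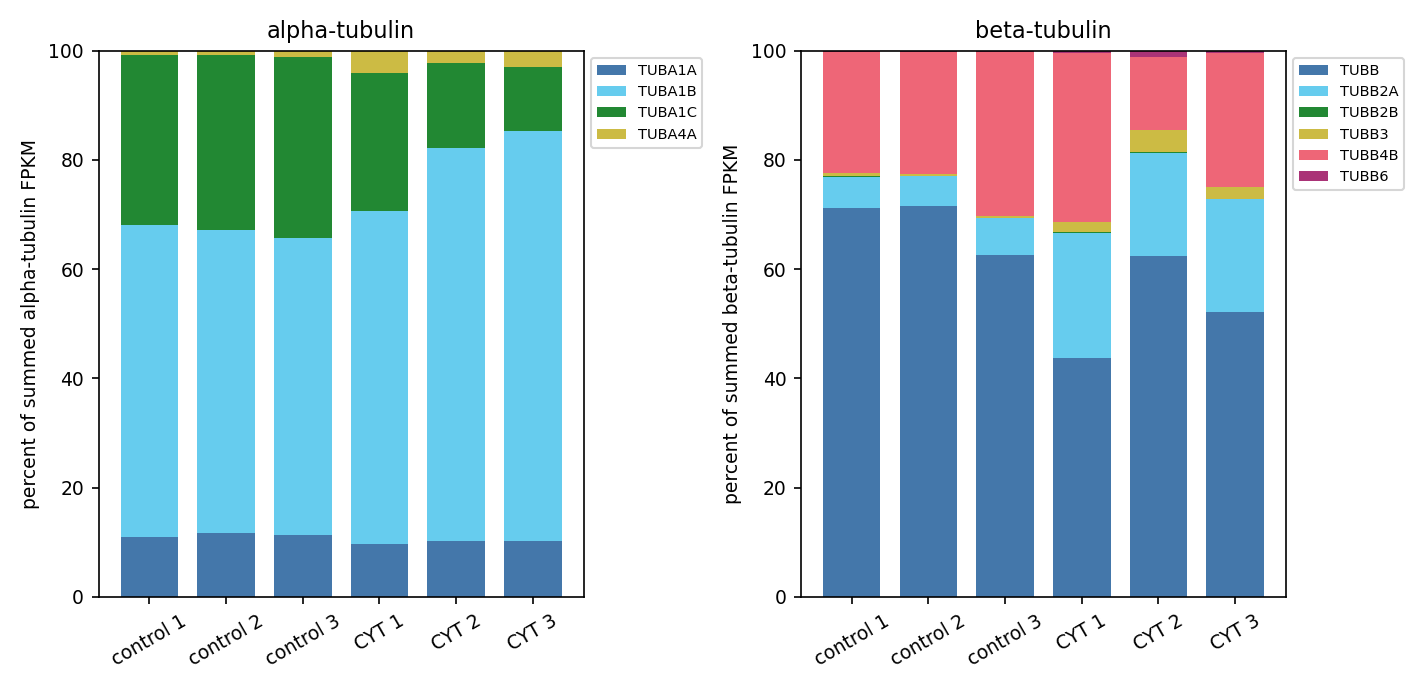
Percent of the summed FPKM of alpha-tubulin (left) and beta-tubulin (right) taken by each isotype in each of the 6 libraries, stacked to 100. In the CYT libraries TUBA1C (green, left) and TUBB (dark blue, right) take a smaller share, and TUBA1B and TUBB2A (light blue in each panel) a larger one.

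The genes that make, modify and bind tubulin were examined as 7 lists of 99 genes, of which 86 were tested. Of these, 10 rose and 11 fell (24.4% called, beside 28.6% of all tested genes), and their median log2 fold change was -0.36. With the replicate number as a block 33 of the 86 were called (38.4%, beside 39.9% of all tested genes in the same fit), 20 of them as lower (23.3%, beside 19.8%). By list the block gave 4 lower among the other tubulins, 2 higher and 3 lower in folding, 2 and 2 in nucleation, 2 and 6 in microtubule binding, 2 and 0 in destabilizing and severing, 5 and 4 in tail modification, and 1 lower in mRNA autoregulation. On the log2(FPKM + 1) scale, which understates the change of low genes, limma gave TUBB4A -1.19, TUBE1 -0.78, MAP1A 1.07, TTLL3 0.54, AGBL3 0.80, TTLL4 -0.67, VASH1 -0.56 and TTC5 -1.65, all still called and each at least 1.5 times smaller than the edgeR values given with the lists.

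Of 12 further tubulin genes, 5 were tested and 3 fell, with a median of -1.20. TUBB4A, a beta isotype of myelinating glia, fell from 11.6 ± 3.83 to 0.753 ± 0.334 CPM (SD, n = 3 each; log2 fold change -3.92, SE 0.48, adjusted p = 0.000849, edgeR), with 7 to 16 counts in CYT libraries. TUBE1, the epsilon-tubulin of centrioles, fell with it (-1.62, adjusted p = 0.00997, edgeR). TUBG1, the gamma-tubulin that nucleates microtubules, also fell (-1.20, adjusted p = 0.0377) and is named after its values were seen. The testis isotypes TUBA3C and TUBA3E had no count in any library.

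The folding list holds the CCT ring, prefoldin and the tubulin cofactors, which together turn new chains into dimers. Of its 20 genes, all tested, 1 rose and 1 fell, with a median of -0.28. TBCC, the cofactor that triggers release of the finished dimer, had 77.2, 98.5 and 65.4 CPM in control and 234, 211 and 245 CPM in CYT libraries and rose 2.86-fold (log2 fold change 1.52, adjusted p = 0.00449, edgeR). TBCE, the cofactor that binds alpha-tubulin in the same complex, had 30.6, 31.2 and 35.4 CPM in control and 9.17, 12.2 and 7.63 CPM in CYT libraries and fell 3.35-fold (-1.74, adjusted p = 0.00377). TBCC kept its call in all 16 alternative fits and TBCE in the 15 in which it was tested, which did not include the one restricted to protein-coding genes. The 9 nucleation genes, all tested, had a median of 0.03, and TUBGCP4, a subunit of the gamma-tubulin ring, alone rose (1.35, adjusted p = 0.0107, edgeR). It lost the call without control replicate 3 (adjusted p = 0.0631).

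Of 23 tested microtubule-binding genes 2 rose and 4 fell, with a median of -0.50. MAP1A, a stabilizing protein of neurons, rose from 0.911 ± 0.617 to 13.9 ± 5.18 CPM (SD, n = 3 each; log2 fold change 3.93, adjusted p = 0.00171, edgeR), with 6 to 25 counts in control libraries. MAPRE2, an end-binding protein, rose (1.26, adjusted p = 0.0413), and MAPT, which encodes tau, and MAP1B fell (-2.02 and -1.24, adjusted p = 0.0278 and 0.0287). These 3 calls were fragile: when each of the 6 libraries was left out in turn, MAPRE2 and MAP1B kept the call in 2 fits each and MAPT in 4. Without control replicate 1 the change of MAPT was -1.24. In limma on log2(FPKM + 1) and log2(FPKM + 0.1) the calls of MAPRE2 (adjusted p = 0.0583 and 0.0528) and MAPT (0.0822 and 0.0518, with changes of -0.39 and -1.25) were lost, and that of MAP1B was lost on the first scale (0.0506) and kept on the second (0.0455). The other 2 genes that fell were MAP4 and MAP7D3, named after their values were seen. Of the 8 tested destabilizing and severing genes 1 rose, with a median of 0.69 and 2 of the 8 below 0. STMN1, which sequesters tubulin dimers, had 360, 293 and 399 CPM in control and 728, 909 and 954 CPM in CYT libraries (log2 fold change 1.301, SE 0.27, adjusted p = 0.0073, edgeR), and it was called in all 16 alternative fits.

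The tail modification list had 18 of 21 genes tested, of which 5 rose and 2 fell, with a median of -0.15. It also holds the acetylation enzymes ATAT1, HDAC6 and SIRT2, which do not act on the tail and did not pass the test. TTLL3, a ligase that adds glycine to the tails, rose from 2.30 ± 0.508 to 16.1 ± 3.37 CPM (SD, n = 3 each; log2 fold change 2.81, adjusted p = 0.00105, edgeR). AGBL3, a carboxypeptidase that removes glutamate, rose from 1.45 ± 0.456 to 8.91 ± 2.42 CPM (2.60, adjusted p = 0.00235). The other 3 that rose, named after their values were seen, were TTL, the ligase that puts the terminal tyrosine back on alpha-tubulin (1.10, adjusted p = 0.0279), TTLL7, a glutamate ligase (1.42, adjusted p = 0.0352), and AGBL5, a carboxypeptidase (0.99, adjusted p = 0.0357). TTLL4, a ligase that starts glutamate chains, fell (-1.75, adjusted p = 0.00605, edgeR). VASH1, which removes the terminal tyrosine of alpha-tubulin, fell as well (-1.25, adjusted p = 0.0256), and lost the call without control replicate 1, 2 or 3 or CYT replicate 3.

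Of the 3 genes of the mRNA autoregulation list 1 fell. TTC5, the adaptor that reads the tubulin start printed above, had 64.3, 55.1 and 36.8 CPM in control and 7.90, 8.76 and 7.39 CPM in CYT libraries. The lowest control library was above the highest CYT library by a wide margin, and the mean fell 6.5-fold (log2 fold change -2.70, SE 0.33, adjusted p = 0.000867, edgeR), a call that held in all 16 alternative fits. SCAPER and CNOT11, which link TTC5 to the deadenylase that shortens tubulin mRNA, had log2 fold changes of -0.39 (adjusted p = 0.467) and 0.16 (adjusted p = 0.703), with overlapping groups. SCAPER was at -0.78 without CYT replicate 2 (adjusted p = 0.0975, edgeR) and at -0.18 without CYT replicate 3. CNOT11 was at 0.03 without control replicate 1, and no alternative fit called either gene.

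**Figure D4:**
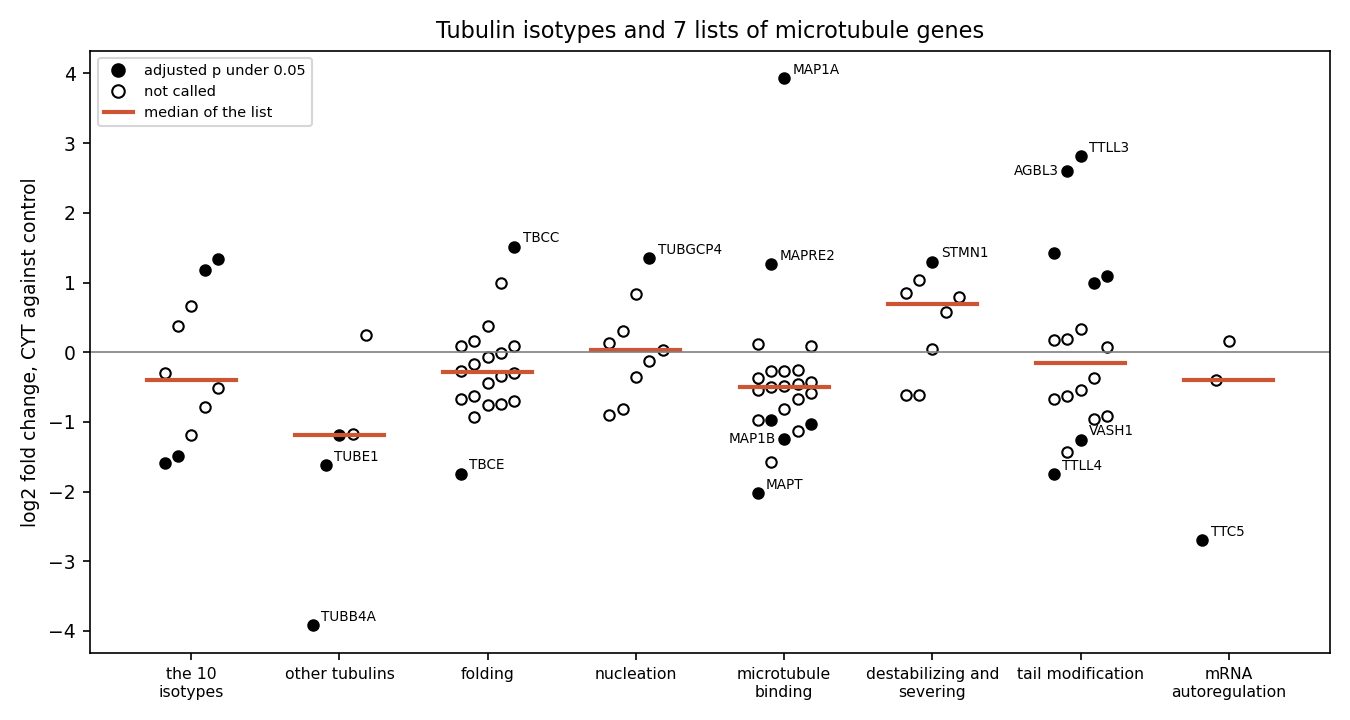
log2 fold change of CYT against control (vertical axis) for the 10 isotypes and the tested genes of the 7 lists, 1 point per gene, filled where the adjusted p was under 0.05, with a red line at each list's median. At the ends of the plotted range lie MAP1A (3.93) and TUBB4A (-3.92), and TTC5 lies at -2.70.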

How the data were processed

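mRNA of 3 control and 3 CYT libraries was sequenced on an Illumina NovaSeq instrument and clean reads were aligned with Hisat2 by the authors. The authors deposited raw counts per gene and FPKM values (named Stringtie in the methods). The submitters' processing notes name hg38 and FastQC 0.12.1. The counting program, its annotation, its use of strand and its handling of reads that match several genes are not given in the sources used here. Libraries were grouped by the sample titles.

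The deposited counts were tested with edgeR 4.0.16 in R 4.3.3 (TMM, filterByExpr with a minimum count of 10, quasi-likelihood test, Benjamini-Hochberg over 15572 genes, called at an adjusted p under 0.05) and checked on simulated counts. CPM are TMM-normalized. Sums and shares over isotypes came from the deposited FPKM, with two-sided exact permutation tests. Alternatives were DESeq2 1.42.0, upper-quartile normalization, 2 other filters, limma 3.58.1 on log2(FPKM + 1) and log2(FPKM + 0.1), protein-coding genes only, a correction for GC content and length (values for 99.8% of tested genes), the replicate block, and leaving out each library. Same-numbered libraries had correlations of deviations from the group means of 0.237, 0.510 and 0.137. The replicate numbers, taken from the titles, were used to pair the libraries. The main test, as fixed in the design, has no block. The blocked value is given where it changes a count, or the call of an isotype or of a list gene named by the rule below. Control 1 correlated more with CYT 3 (0.358) than with CYT 1, and control 3 more with CYT 1 (0.223) than with CYT 3. Among same-numbered pairs, only the libraries of replicate 2 were each the closest match of the other. These values do not settle the pairing, on which the blocked and paired results rest.

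The members and lists were chosen with earlier results of these data known. Named list genes were the 2 called genes with the highest positive and the 2 with the lowest negative log2 fold change in each list (mean of at least 5 CPM), and all 3 autoregulation genes. A planned protein comparison was replaced by coding sequences of 1 GENCODE 29 transcript per gene. All 10 members lay at the same GRCh38 locus in the deposited table and in that release. Of the marker genes and coding ends examined, some are not reported here.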

Additional observations from a re-analysis of the deposited data

How the results depend on the processing

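TUBB kept its direction and call in 17 of 17 alternatives and TUBA1C in 16 of 16, and the direction of 9 of the 10 isotypes held throughout. TUBB2B turned to 0.58 without control replicate 1 and to 0.02 without CYT replicate 3, in a range from -1.39 to 0.58. The number of isotypes called, 4, became 7 with the correction for GC content and length, alone or with the replicate block (4 of them lower in both), and the added calls were TUBA1A, TUBB2A and TUBB4B. Leaving out 1 library gave 2 to 5 calls, with 0 to 3 higher and 2 lower. Over all tested genes the same fits called 2891 of 16412 (without control replicate 3) to 5752 of 16146 (without CYT replicate 2). The calls over all genes ran from 1683 to 3002 higher and from 1208 to 2750 lower. Of the 86 tested microtubule genes, 21 were called, against 33 with the replicate block, 38 with the correction and 39 with both. Of these, 11 were lower (12.9% of all tested genes were), against 20 (23.3%, beside 19.8% of all tested genes), 24 (27.9%, beside 22.6%) and 26 (30.2%, beside 22.4%). Leaving out a library gave 12 to 26 calls, 5 to 9 higher and 5 to 17 lower, in the fits that gave 2891 to 5752 calls over all tested genes. The replicate block by itself gave 5 isotype calls and changed that of TUBB4B and of no other isotype. It changed no call of a list gene named by the rule given above. For list genes named after their values were seen, the blocked call is not reported here. Over all tested genes 4451 were called (28.6%), against 6209 with the block (39.9%), 7006 with the correction (45.0%), 6914 with both (44.4%), 2859 with a minimum mean of 5 CPM and 2891 without control replicate 3. Upper-quartile normalization moved the median of all genes to 0.16 and no filter to 0.41. The causes were not tested.

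Changes of share in percentage points depended on the length used: TUBA1A -1.28 (-0.867 by counts, -1.71 by mRNA length), TUBA4A 2.14 (1.43 by mRNA length), TUBB2A 14.9 (8.31 and 10.7), TUBB3 2.23 (6.24 and 7.48) and TUBB6 0.439 (1.24 and 1.27). Without TUBB2A and TUBB2B, that of TUBB was -6.26 (pooled SD 7.98) in place of -15.7 (7.55). Without 1 library the changes ran from -1.50 to -1.08 for TUBA1A, 1.67 to 2.55 for TUBA4A, -20.5 to -11.2 for TUBB, 13.8 to 15.8 for TUBB2A, 1.52 to 2.63 for TUBB3, 0.214 to 0.590 for TUBB6, and -5.91 to 2.90 for TUBB4B. Low counts limit TUBB2B (7 to 144 counts).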

Other observations

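The genes whose log2 CPM followed TUBB most closely over the 6 libraries, among 11408 genes with a mean of at least 5 CPM, were HNRNPL (Pearson r = 0.999), MAP4K2 (0.998) and PLXNA2 (0.998), and 693 genes had an r above 0.95. The 6 libraries share 1 contrast between groups, so these values are a description.

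Tubulin pseudogenes took few counts. Of 38 rows, 3 had more than 10 counts in a library, and their sum was 0.242 to 1.06% of the counts of the 10 isotypes. TUBBP1 varied within both groups, with 18 to 2370 counts in control libraries and 7 to 726 after CYT. AC092143.1, which shares its locus with TUBB3, had 1 count in CYT replicate 2 beside 302 to 869 in the other 5 libraries.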
